A study of Mus musculus with 13 samples.

Results

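The circadian clock genes examined were Arntl, Npas2, Per1, Per2, Per3, Cry1, Nr1d1, Nr1d2, Dbp and Ciart, measured in the epididymal white fat of mice, a depot inside the abdomen. A gene was taken where a probe set of the array, the set of oligonucleotides that reads a transcript, was paired with that gene alone, and the probe set with the highest mean stood for it. This gave 8 of the 10 genes, among 18820 genes tested in all. Nr1d1 and Dbp had no probe set of their own, because the annotation pairs theirs also with the neighbouring genes Thra and Sphk2, so no level is given for Nr1d1 or Dbp.

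The arrays came from male mice aged 18 weeks that had eaten one of the diets for 12 weeks: 4 arrays of P2X7 knockout mice on high-fat diet (60% of energy from fat), 3 of knockout mice on low-fat chow (13%), 3 of wild-type animals on the high-fat diet and 3 of wild-type animals on chow. The wild-type mice were C57/BL6, and the knockout line was B6.129P2-P2rx7tm1Gab/J (P2X7-/-), backcrossed to that background for 7 generations. The labels do not say that the genotypes were littermates or that each array held 1 animal, so p-values reflect only how these samples spread, which may be technical, and no source used here gives the hour of killing. P2X7, encoded by P2rx7, is an ion channel that ATP outside the cell opens, and the study asked whether obese fat needs it for inflammasome activation.

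The values are log2 expression values, so 1 unit is a doubling, and each array's median over genes lay between 6.56 and 6.69. The probe set of P2rx7, the targeted gene, read 8.90 to 9.14 in knockout and 9.36 to 9.69 in wild-type animals on high-fat diet, and 7.90 to 8.23 in knockout and 7.91 to 8.41 in wild-type mice on chow. No source used here places that probe set relative to the altered part of P2rx7, so it checks nothing about the genotype labels. The tissue label was checked against markers: the 9 adipocyte markers measured averaged 11.24 to 12.26 per array, while 4 epididymis markers averaged 3.57 to 4.23. Liver transcripts were present and uneven between groups, and their values stand beside the results they move with. The number of arrays limits the precision.

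The mammalian clock is a loop of transcription that runs in nearly every cell. BMAL1, the product of Arntl, pairs with CLOCK or its relative NPAS2 and switches on genes that carry E-box sequences, among them the Per and Cry genes, Nr1d1, Nr1d2, Dbp and Ciart. PER and CRY proteins then block that activator, and the NR1D (REV-ERB) receptors repress Arntl and Npas2 through RORE sequences. The activating and the repressed arm therefore peak at roughly opposite times of day, and in fat the loop times lipid storage and release as well as adipokine output.

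The promoters of 9 of the 10 genes, all but Per2, were matched by symbol to RefSeq sequences (build GRCm38.p6). Each ran from 250 bases before the transcript start to 50 after it. They were searched on both strands for the E-box CACGTG, the RORE core TAGGTCA or TGGGTCA, the D-box TTATGTAA or TTACGTAA, bound by DBP and its relatives, and the cAMP response element TGACGTCA. Of all 32851 promoters in that table, 7.15% held the E-box, 6.45% the RORE core, 1.06% the D-box and 1.79% the cAMP response element. Ciart held E-boxes at -116, -58 and -44, counted from the start to the first base of the match. Per1 (the first of its 2 promoters) held an E-box at -166, and Cry1 held an E-box at -60. Per3 held D-boxes at -205 and -158, and the second of 2 Arntl promoters held a RORE core at 31. No matches overlapped, and the other windows held none of these letters. A match is a description of the sequence and not a test of binding. The 4 promoters below are those of a gene that rose on high-fat diet (Arntl) and of 3 that fell (Per1, Per3 and Ciart), with the matches in capitals. Arntl lies at chr7:113207261-113207560 on the plus strand, Per1 at chr11:69098699-69098998 on the plus strand, Per3 at chr4:151044616-151044915 on the minus strand and Ciart at chr3:95882179-95882478 on the minus strand.
Arntl: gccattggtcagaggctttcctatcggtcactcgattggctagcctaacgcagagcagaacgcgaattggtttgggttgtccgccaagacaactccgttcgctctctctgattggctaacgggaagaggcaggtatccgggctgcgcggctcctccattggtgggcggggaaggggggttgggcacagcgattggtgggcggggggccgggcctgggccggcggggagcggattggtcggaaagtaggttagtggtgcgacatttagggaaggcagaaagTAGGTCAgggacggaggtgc
Per1: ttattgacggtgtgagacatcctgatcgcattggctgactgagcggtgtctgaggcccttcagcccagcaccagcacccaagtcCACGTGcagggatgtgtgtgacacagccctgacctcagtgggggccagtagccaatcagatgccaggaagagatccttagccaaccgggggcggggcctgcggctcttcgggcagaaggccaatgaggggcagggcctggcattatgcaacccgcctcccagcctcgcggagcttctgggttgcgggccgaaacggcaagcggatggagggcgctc
Per3: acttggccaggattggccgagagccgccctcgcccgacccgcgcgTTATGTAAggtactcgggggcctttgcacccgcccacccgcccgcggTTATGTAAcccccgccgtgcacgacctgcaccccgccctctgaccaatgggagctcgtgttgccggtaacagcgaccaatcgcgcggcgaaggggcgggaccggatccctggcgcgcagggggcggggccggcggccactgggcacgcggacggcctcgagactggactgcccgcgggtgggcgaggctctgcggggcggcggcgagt
Ciart: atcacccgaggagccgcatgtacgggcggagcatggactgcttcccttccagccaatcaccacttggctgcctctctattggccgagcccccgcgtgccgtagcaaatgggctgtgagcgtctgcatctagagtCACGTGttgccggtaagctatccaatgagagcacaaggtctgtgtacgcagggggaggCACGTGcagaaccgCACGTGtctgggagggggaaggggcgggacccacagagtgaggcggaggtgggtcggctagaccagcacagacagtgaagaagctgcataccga

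In wild-type mice, the clock genes were first compared between the diets. The hour of killing is not given, and its part in any difference between groups, here or below, was not tested. On high-fat diet Arntl and Npas2 rose and the other 6 genes fell, all 8 of them with no overlap between the diets. The same was so for 43.3% of all genes. Arntl was 3.04-fold and Npas2 3.82-fold higher, while Ciart was 3.16-fold, Per3 2.98-fold and Per2 2.36-fold lower. Of the 8 genes, 2 rose and 6 fell at an adjusted p under 0.05, where 17.7% of all 18820 genes rose and 18.1% fell. The median log2 change was -0.80 over the 8 genes and -0.03 over all genes tested. Tests were limma fits over all genes with Benjamini-Hochberg adjustment, and a plus-minus sign after a change gives its standard error (SE).

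Arntl, the core activator, read 7.74, 7.27 and 7.11 in the wild type on high-fat diet and 5.93, 5.90 and 5.48 on chow. Every high-fat array stood more than 1 unit above every chow array, and the change was 1.60 ± 0.16 (limma adjusted p 4.62e-06). Npas2, the partner that can replace CLOCK, read 8.16, 7.32 and 7.95 on high-fat diet and 5.86, 5.89 and 5.87 on chow. The chow arrays were nearly equal and the high-fat arrays spread widely, and Npas2 changed by 1.93 ± 0.18 (adjusted p 2.36e-06), the largest change among the 8 genes.

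Members of the Per family encode the repressor that joins with CRY. Per1 read 7.84, 8.13 and 8.31 in the wild type on high-fat diet and 9.08, 8.92 and 9.28 on chow, a change of -1.003 ± 0.18 (adjusted p 0.000532). Per2 read 6.43, 6.96 and 7.28 on high-fat diet and 8.03, 8.04 and 8.30 on chow, a change of -1.24 ± 0.18 (adjusted p 9.55e-05). Per3, thought to be less needed for the rhythm itself, read 7.43, 7.77 and 8.15 on high-fat diet and 9.29, 9.27 and 9.50 on chow, a change of -1.57 ± 0.14 (adjusted p 1.93e-06). In all 3 Per genes replicate 1 of the high-fat mice was lowest and replicate 3 highest, and no high-fat array reached the chow range.

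Cry1, whose protein joins PER in the repressor, showed the smallest change of the 8 genes. It read 5.90, 6.16 and 6.12 on high-fat diet and 6.45, 6.42 and 6.70 on chow (-0.46 ± 0.11, adjusted p 0.00438), so the diets were separate by a narrow gap. Nr1d2 (REV-ERB beta), a repressor of Arntl and Npas2, read 9.19, 9.29 and 9.29 on high-fat diet and 9.87, 9.79 and 9.91 on chow. Within-diet SDs were small, at 0.057 on high-fat diet and 0.065 on chow (n = 3 each), and it changed by -0.60 ± 0.07 (adjusted p 1.02e-05). A second Nr1d2 probe set read 3.38 to 3.73 on all arrays, far under the array medians, and was not used.

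Ciart (CHRONO) encodes a repressor that binds BMAL1, and its promoter holds the 3 E-boxes shown above. It read 6.53, 6.39 and 6.96 in the wild type on high-fat diet and 8.12, 8.17 and 8.57 on chow. The diets were more than 1 unit apart, with a change of -1.66 ± 0.19 (limma adjusted p 1.26e-05). The other probe set paired with Ciart alone read 6.37, 6.42 and 6.11 on high-fat diet and 7.15, 7.64 and 8.08 on chow, also without overlap. Put in place of the first, it changed by -1.32 ± 0.20 (adjusted p 0.000175).

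**Figure D1:**
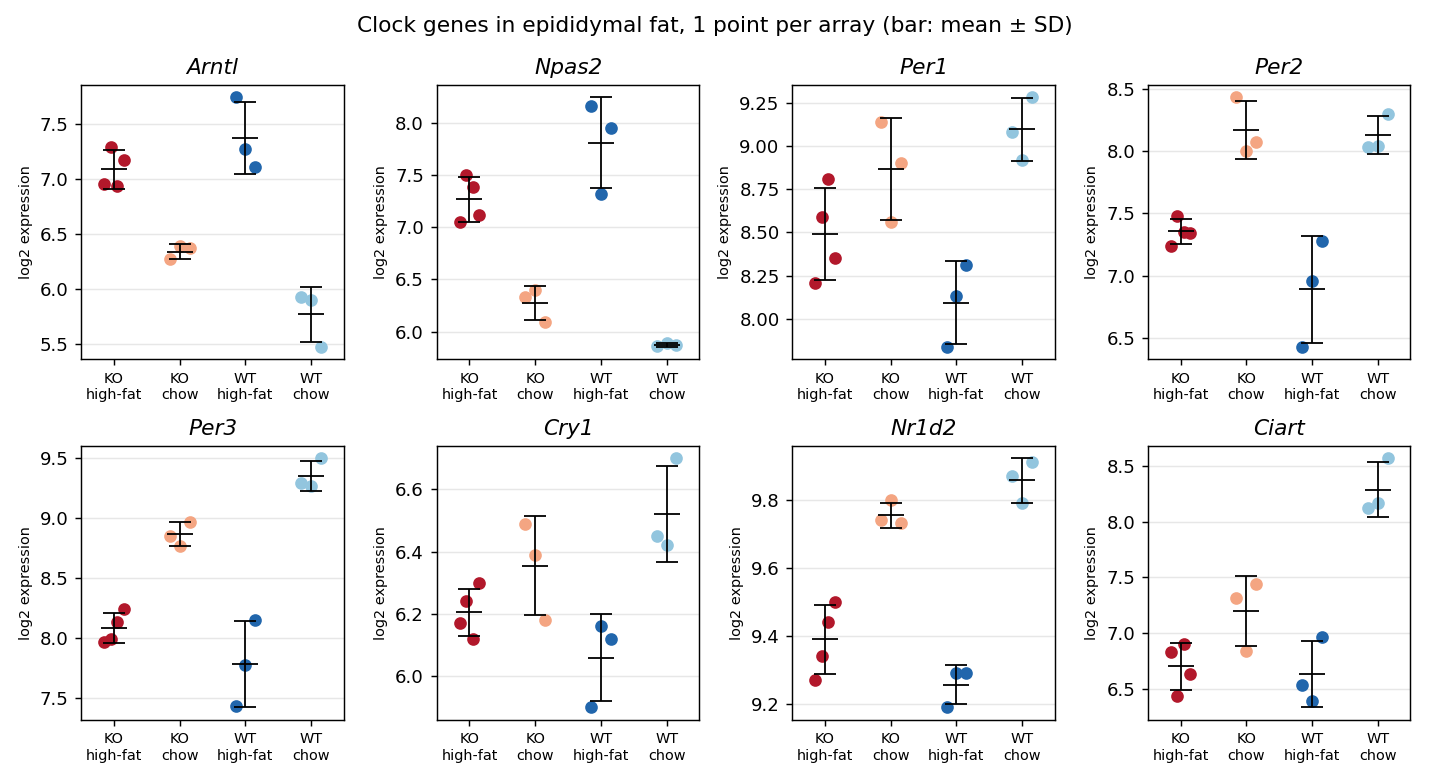
The log2 expression of each of the 8 clock genes (vertical axis) in the 4 groups (horizontal axis), 1 point per array, with the mean and SD as bars; KO is P2X7 knockout and WT wild type, and each panel has its own scale. Arntl and Npas2 are higher and the other 6 genes lower on high-fat diet, and for Ciart the knockout chow arrays (6.84 to 7.44) lie below the wild-type chow arrays (8.12 to 8.57).

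The cell makeup of the tissue moved with the diet. The 10 macrophage markers averaged 10.59 to 11.09 on high-fat diet and 8.64 to 9.06 on chow in wild-type mice, and all 10 rose, led by markers with changes of up to 3.92. Of 9 adipocyte markers 1 rose and 8 fell, with averages of 11.24 to 11.67 on high-fat diet and 12.10 to 12.24 on chow. All 6 mesothelium markers fell, with averages of 7.40 to 8.63 on high-fat diet and 9.30 to 9.51 on chow, and 4 of 6 endothelium markers fell. In whole tissue, fewer cells of a type and less RNA per cell cannot be told apart, and the part of these shifts in the clock genes was not tested. Liver markers averaged 5.52 to 7.27 on high-fat diet and 7.08 to 8.11 on chow, with 6 of 10 fallen and the others not past the threshold. With their mean as a covariate all 8 clock genes kept their direction and passed, with changes of 1.70 ± 0.22 for Arntl, 1.63 ± 0.21 for Npas2 and -1.96 ± 0.22 for Ciart.

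The same comparison was made in P2X7 knockout mice. The directions were those of the wild type for all 8 genes: Arntl and Npas2 rose and Per2, Per3, Nr1d2 and Ciart fell, while Per1 and Cry1 did not pass. Thus 2 of 8 rose and 4 fell, where 14.5% of all genes rose and 19.7% fell in knockout mice. The changes were between 1.29-fold and 2.00-fold among those that passed, and the median log2 change was -0.37 over the 8 genes and -0.06 over all genes. The groups did not overlap for 5 of the 8, against 43% of all genes.

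Arntl read 6.95, 7.29, 6.94 and 7.17 in knockouts on high-fat diet and 6.27, 6.39 and 6.37 on chow, a change of 0.74 ± 0.15 (limma adjusted p 0.00176). Npas2 read 7.05, 7.50, 7.39 and 7.12 on high-fat diet and 6.33, 6.40 and 6.09 on chow, a change of 1.00 ± 0.17 (adjusted p 0.00046). For both activators every high-fat array lay above every chow array.

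Per2 read 7.24, 7.48, 7.35 and 7.34 in knockouts on high-fat diet and 8.43, 8.00 and 8.07 on chow, and it fell by 0.81 ± 0.17 on the log2 scale (limma adjusted p 0.00179). Per3 read 7.97, 7.99, 8.13 and 8.24 on high-fat diet and 8.85, 8.77 and 8.97 on chow, and it fell by 0.78 ± 0.13 (adjusted p 0.000524). Per2 and Per3 were tight within the knockout high-fat group and clear of the chow arrays. Per1 read 8.21, 8.59, 8.81 and 8.35 on high-fat diet and 9.14, 8.56 and 8.90 on chow. Here the groups overlapped, since replicate 2 on chow lay below replicates 2 and 3 on high-fat diet, and the change of -0.37 ± 0.17 did not pass (95% interval -0.73 to -0.02, adjusted p 0.101). With knockout chow replicate 2 left out, Per1 passed (-0.53, adjusted p 0.0377), and likewise with knockout high-fat replicate 3 left out (-0.48, adjusted p 0.0434).

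Cry1 read 6.17, 6.24, 6.12 and 6.30 in knockouts on high-fat diet and 6.49, 6.39 and 6.18 on chow. Its groups overlapped, and the change was -0.15 ± 0.10 (95% interval -0.37 to 0.07, limma adjusted p 0.292). Nr1d2 read 9.27, 9.34, 9.44 and 9.50 on high-fat diet and 9.74, 9.80 and 9.73 on chow, with a change of -0.37 ± 0.06 (adjusted p 0.000457). Its groups were separate, although averaging it with its dim second probe set gave -0.17 ± 0.07, which did not pass (adjusted p 0.104).

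Ciart read 6.83, 6.43, 6.90 and 6.63 in knockouts on high-fat diet and 7.31, 6.84 and 7.44 on chow. Replicate 2 on chow fell inside the high-fat range, and the change was -0.50 ± 0.18 (limma adjusted p 0.0429). This call was lost in 5 of 13 fits that left out 1 array: without knockout chow replicate 1 or 3, knockout high-fat replicate 2 or 4, or wild-type chow replicate 2. Across the 13 fits the change lay between -0.68 and -0.38. The other Ciart probe set gave -0.58 ± 0.19 (adjusted p 0.0307).

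Tissue makeup moved in knockout mice too. All 10 macrophage markers rose, with averages of 10.58 to 10.87 on high-fat diet and 8.88 to 9.25 on chow, and 7 of 9 adipocyte markers fell while 1 rose, with averages of 11.43 to 11.73 on high-fat diet and 12.19 to 12.26 on chow. All 6 mesothelium markers fell without overlap, with averages of 8.06 to 8.33 on high-fat diet and 8.81 to 9.61 on chow, and 2 of 6 endothelium markers fell. Liver markers averaged 5.22 to 6.33 on high-fat diet and 5.76 to 5.90 on chow, and none of 10 passed. With the liver marker mean as covariate every clock gene kept its direction and its side of the threshold. Arntl stood at 0.76 ± 0.15, Npas2 at 0.96 ± 0.15 and Ciart at -0.54 ± 0.16. The part of the other shifts in the clock genes of knockout mice was not tested.

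**Figure D2:**
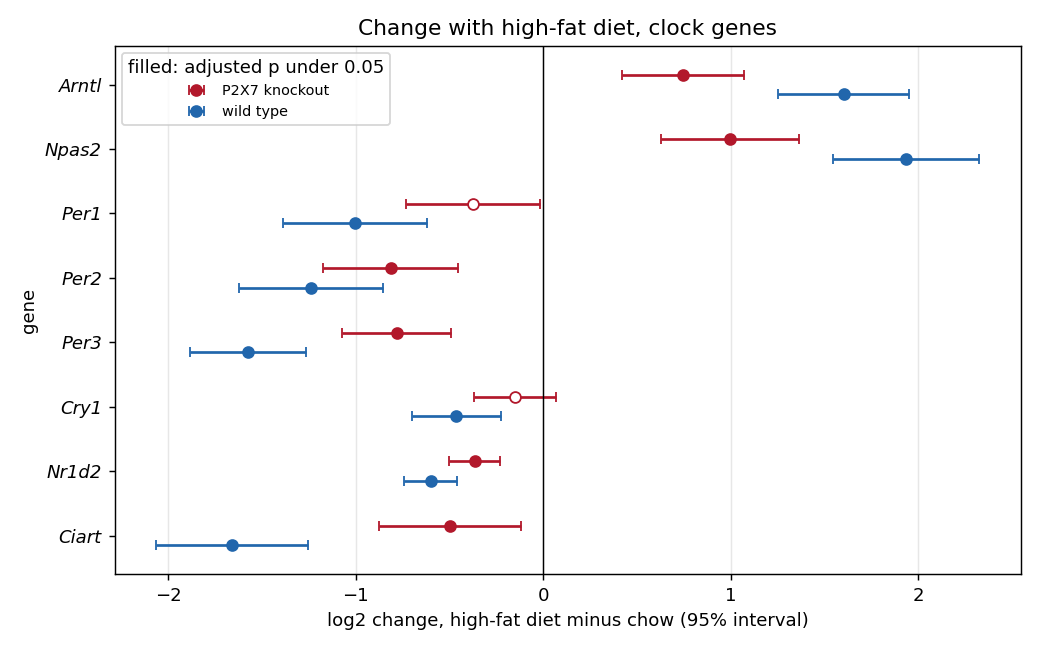
The log2 change with high-fat diet (horizontal axis, with the 95% interval from limma) of each clock gene (vertical axis) in P2X7 knockout mice (red, upper) and wild-type mice (blue, lower), with filled points for an adjusted p under 0.05. All 8 knockout points lie nearer to 0 than the wild-type points, from -0.81 to 1.00 in knockout and from -1.66 to 1.93 in wild-type mice.

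Whether the diet acted differently in the genotypes was asked by the interaction, the change in knockout minus the change in wild-type mice. The change was smaller in knockout mice for 8 of 8 genes, at 0.30 (Ciart) to 0.66 (Per2) of the wild-type log2 change with a median of 0.48. Over the 6736 genes that changed with diet in wild-type mice, which were chosen on the wild-type change, the median of this ratio was 0.78, and 78.3% were smaller in knockout mice. The difference between those ratios was not tested.

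No clock gene passed for the interaction. Across all genes limma called 0% risen and 0% fallen, with 1829 genes (9.72%) at an unadjusted p under 0.05, and a fit without the intensity trend called 2. Of the clock genes 6 of 8 had an unadjusted p under 0.05. Ciart had an interaction of 1.16 ± 0.26 (adjusted p 0.298, 95% interval 0.61 to 1.72), Npas2 of -0.94 ± 0.25 (adjusted p 0.32), Arntl of -0.86 ± 0.22 (adjusted p 0.32) and Per3 of 0.79 ± 0.20 (adjusted p 0.32). Those of Per1 (0.63 ± 0.24), Per2 (0.42 ± 0.24), Cry1 (0.31 ± 0.15) and Nr1d2 (0.23 ± 0.09) had the sign opposite to the diet change as well. With wild-type high-fat replicate 2 left out, whose Npas2 value was the lowest of its group, the Npas2 interaction was -1.18 and passed (adjusted p 0.018). That array also stood apart from its group in other measures. Its macrophage markers averaged 10.59, against 11.09 and 11.05 in replicates 1 and 3, and its liver markers 7.27, against 6.13 and 5.52. On the first principal component it lay at 23.2, against 41.1 and 41.8, and the part of these differences in Npas2 was not tested. Macrophage markers had a median interaction of -0.32 and liver markers of 1.13, none of either 10 past the threshold. In limma 1 of 10 macrophage and 4 of 10 liver markers had an unadjusted p under 0.05, against 9.72% of all genes. With the liver mean as covariate the interactions stood at 1.42 for Ciart, -0.68 for Npas2, -0.94 for Arntl and 0.97 for Per3, and none passed (adjusted p 0.2987 to 0.4702).

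On chow, knockout mice were compared with wild-type mice. Ciart was the clock gene that passed, 2.13-fold lower in knockout mice at 7.31, 6.84 and 7.44, against 8.12, 8.17 and 8.57 in wild-type mice (-1.09 ± 0.19, limma adjusted p 0.0476). It was 1 of 8 fallen and 0 risen, where 0.085% of all genes fell and 0.0478% rose. Arntl stood at 0.57 ± 0.16 (adjusted p 0.272), Npas2 at 0.40 ± 0.18 (adjusted p 0.511) and Per3 at -0.49 ± 0.14 (adjusted p 0.28), which with Ciart made 4 of 8 genes whose groups did not overlap, against 14.9% of all genes. Per2 stood at 0.04 ± 0.18 (adjusted p 0.964), with a 95% interval from -0.34 to 0.42.

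The Ciart call on chow was narrow. It was lost in 11 of 13 fits that left out 1 array, remaining when wild-type high-fat replicate 2 or 3 was left out, with changes between -1.21 and -0.91 across the fits. The other Ciart probe set read 7.14, 6.63 and 6.97 in knockout and 7.15, 7.64 and 8.08 in wild-type mice, and its change of -0.71 ± 0.20 did not pass (adjusted p 0.275). All 10 liver markers were lower in knockout mice on chow without overlap, averaging 5.76 to 5.90 against 7.08 to 8.11 in wild-type mice, though none of the 10 passed. Albumin (Alb), the chief liver plasma protein, differed by -1.90 ± 0.63 (adjusted p 0.347). With the liver mean as covariate Ciart stood at -1.50 ± 0.26 (adjusted p 0.135) and Npas2 at -0.02 ± 0.24, where the covariate and the genotype largely overlap.

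On high-fat diet no clock gene passed between knockout and wild-type mice, where 0.0106% of all genes rose and 0.0319% fell, and 4 of 8 had an unadjusted p under 0.05 in limma, against 7.41% of all genes. Npas2 was lower at -0.54 ± 0.17 (adjusted p 0.595), and Per2 (0.47 ± 0.17, adjusted p 0.623), Per1 (0.40 ± 0.17, adjusted p 0.644) and Per3 (0.31 ± 0.13, adjusted p 0.661) were higher. Groups overlapped for every one of the 8 genes, while 6.68% of all genes did not overlap. With wild-type high-fat replicate 2 left out, Npas2 stood at -0.79 and passed (adjusted p 0.0166). Averaged over both diets, no clock gene passed either, where 0.0478% of all genes rose and 0.0584% fell. Ciart came nearest at -0.51 ± 0.13 (adjusted p 0.289), the single clock gene with an unadjusted p under 0.05, against 7.23% of all genes. Liver markers were lower in knockout mice here too, with a median of -0.66 on high-fat diet (1 of 10 at an unadjusted p under 0.05) and -1.30 over both diets (10 of 10), none past the threshold. With the liver mean as covariate Ciart stood at -0.79 ± 0.18 over both diets (adjusted p 0.212) and Npas2 at -0.70 ± 0.16 on high-fat diet (adjusted p 0.194).

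The order of the group means was alike for most clock genes. For Arntl and Npas2 it ran from wild-type high-fat through knockout high-fat and knockout chow to wild-type chow, and for Per1, Per3, Cry1, Nr1d2 and Ciart it ran the other way. Thus both knockout means lay between the wild-type means for 7 of 8 genes, the exception being Per2, where knockout chow (8.17 ± 0.23, SD, n = 3) stood by wild-type chow (8.13 ± 0.15, SD, n = 3). The share of all genes with such an order was not counted, and the 8 genes were read on the same arrays, so this order is a description. The neighbours at the high-fat end overlapped for all 8 genes, and the knockout groups overlapped each other for Per1, Cry1 and Ciart. The neighbours at the chow end overlapped for Per1, Per2, Cry1 and Nr1d2 and not for Arntl, Npas2, Per3 and Ciart.

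Within groups the arrays also differed from each other. Among wild-type high-fat arrays, replicate 1 stood above its group mean by 0.37 for Arntl and 0.35 for Npas2, and it stood at -0.46 for Per2, -0.35 for Per3 and -0.26 for Per1. Replicate 3 of that group had the opposite sign for Arntl (-0.26), Per1 (0.22), Per2 (0.39) and Per3 (0.37), and it stood at 0.33 for Ciart. For Npas2, however, replicate 3 also stood above the group mean (0.14). Among wild-type mice on chow, replicate 3 was lowest for Arntl (-0.29) and highest for Per1, Per2, Per3, Cry1, Nr1d2 and Ciart. In knockout mice on high-fat diet this pattern was seen only in part. Replicate 3 of that group was lowest for Arntl (-0.15) and highest for Per1 (0.32) and Ciart (0.20). It was lowest for Cry1 (-0.08), however. Replicate 1 there was low for Arntl (-0.14), Per1 (-0.28), Per2 (-0.12) and Per3 (-0.11), and replicate 2 was high for Arntl (0.21), Per1 (0.10) and Per2 (0.13).

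**Figure D3:**
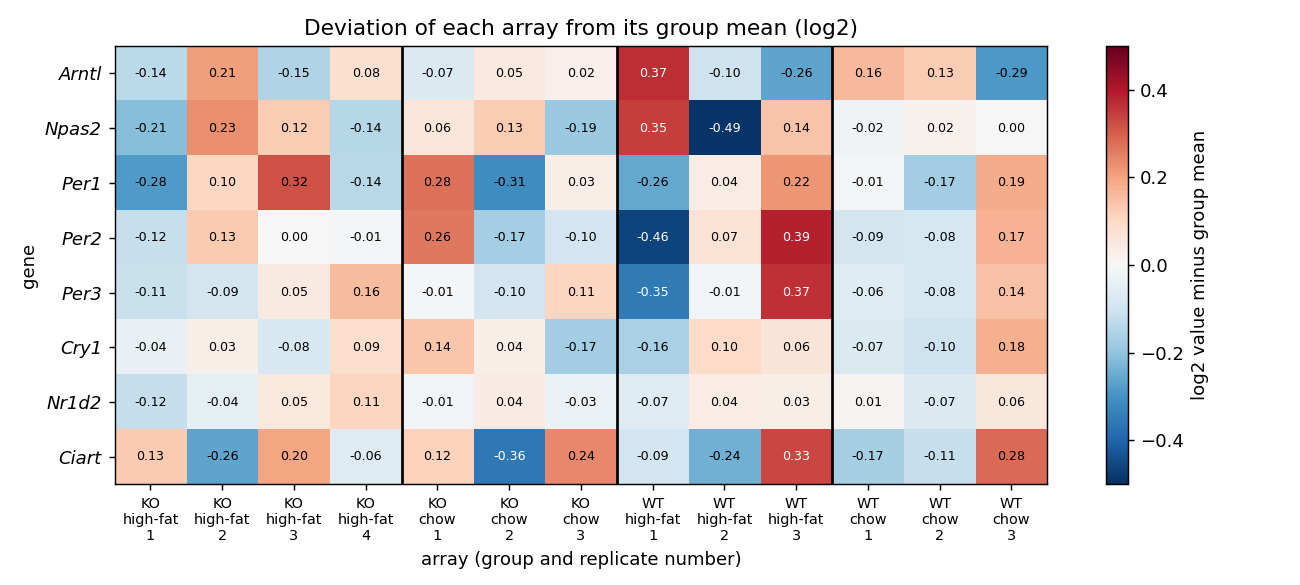
Each array's log2 value minus the mean of its group (colour and number, from blue below to red above) for the 8 clock genes (rows) in 13 arrays (columns), with black lines between groups. Wild-type high-fat replicate 1 is red for Arntl (0.37) and blue for Per2 (-0.46), and replicate 3 is the reverse (-0.26 and 0.39).

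Other genes with like deviations were sought over the 13 arrays, by Pearson's r with the deviations of a clock gene, among 10291 genes with a mean of at least 6. Nearest to Arntl were Cisd2 (r 0.865), Cpeb4 (r 0.849), Clp1 (r 0.828), Hsp90aa1 (r 0.826) and Psma7 (r 0.813). Dbp, meant as the other anchor, has no value here, and Per3 took its place after the values were seen. Nearest to Per3 were Fryl (r 0.936), the D-box activator Tef (r 0.932), Nsmce3 (r 0.926), Gstt1 (r 0.906) and Zfp780b (r 0.906). The arrays of a group share an estimated mean, and the highest of so many candidates are large by selection, so these are descriptions.

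Further parts of the loop were read from a list of 18 other clock components, of which 16 were measured. Among them 2 rose and 7 fell in knockout mice (median of the log2 changes -0.20), while 2 rose and 8 fell in wild-type mice (median -0.34). The shares over all genes were 14.5% risen and 19.7% fallen in knockout mice, and 17.7% risen and 18.1% fallen in wild-type mice. In both genotypes the D-box activators fell. Tef stood at -0.72 ± 0.11 in the knockout (limma adjusted p 0.000187) and at -1.09 ± 0.12 in the wild type (adjusted p 7.77e-06). Hlf, its relative, stood at -0.75 ± 0.15 in the knockout (adjusted p 0.00126) and at -1.36 ± 0.16 in the wild type (adjusted p 1.4e-05). Nfil3, the repressor that competes for D-boxes, rose in each genotype. Its change was 0.34 ± 0.11 in the knockout (adjusted p 0.0358) and 0.44 ± 0.12 in the wild type (adjusted p 0.0119).

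Cry2, the relative of Cry1, averaged 8.08 ± 0.09 on high-fat diet (SD, n = 4) and 8.95 ± 0.14 on chow (SD, n = 3) in knockout mice and changed by -0.87 ± 0.11 (SE). In wild-type mice it averaged 7.96 ± 0.24 on high-fat diet and 8.99 ± 0.11 on chow (SD, n = 3 each) and changed by -1.03 ± 0.11 (SE). Fbxl21, a ubiquitin ligase that acts on CRY proteins, changed by -0.39 ± 0.09 in the knockout (limma adjusted p 0.00601) and -0.77 ± 0.10 in the wild type (adjusted p 4.85e-05). Csnk1e, a kinase of PER proteins, stood at -0.23 ± 0.06 in knockout and -0.36 ± 0.07 in wild-type mice, and Rora, an activator at ROREs, at -0.31 ± 0.08 in knockout and -0.42 ± 0.09 in wild-type mice, and all 4 changes passed. Bhlhe40 (DEC1), a repressor at E-boxes, did not pass in knockout mice (-0.25 ± 0.18, adjusted p 0.304) and fell in wild-type mice (-0.89 ± 0.19, adjusted p 0.00217), and its interaction did not pass (0.64 ± 0.26, adjusted p 0.47). Clock, whose protein pairs with BMAL1, did not pass in knockout mice (-0.07 ± 0.07, adjusted p 0.501) or in wild-type mice (0.08 ± 0.07, adjusted p 0.461). Timeless, better known for DNA replication, rose by 0.44 ± 0.12 in knockout and 0.58 ± 0.12 in wild-type mice. Timeless (4.66 to 5.73 over all arrays), Fbxl21 (5.20 to 6.24) and Nfil3 (5.62 to 6.44) were dim, below every array's median over genes. Between the genotypes none of the 16 passed on either diet in limma, with 9 on chow and 0 on high-fat diet at an unadjusted p under 0.05, against 9.62% and 7.41% of all genes.

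**Figure D4:**
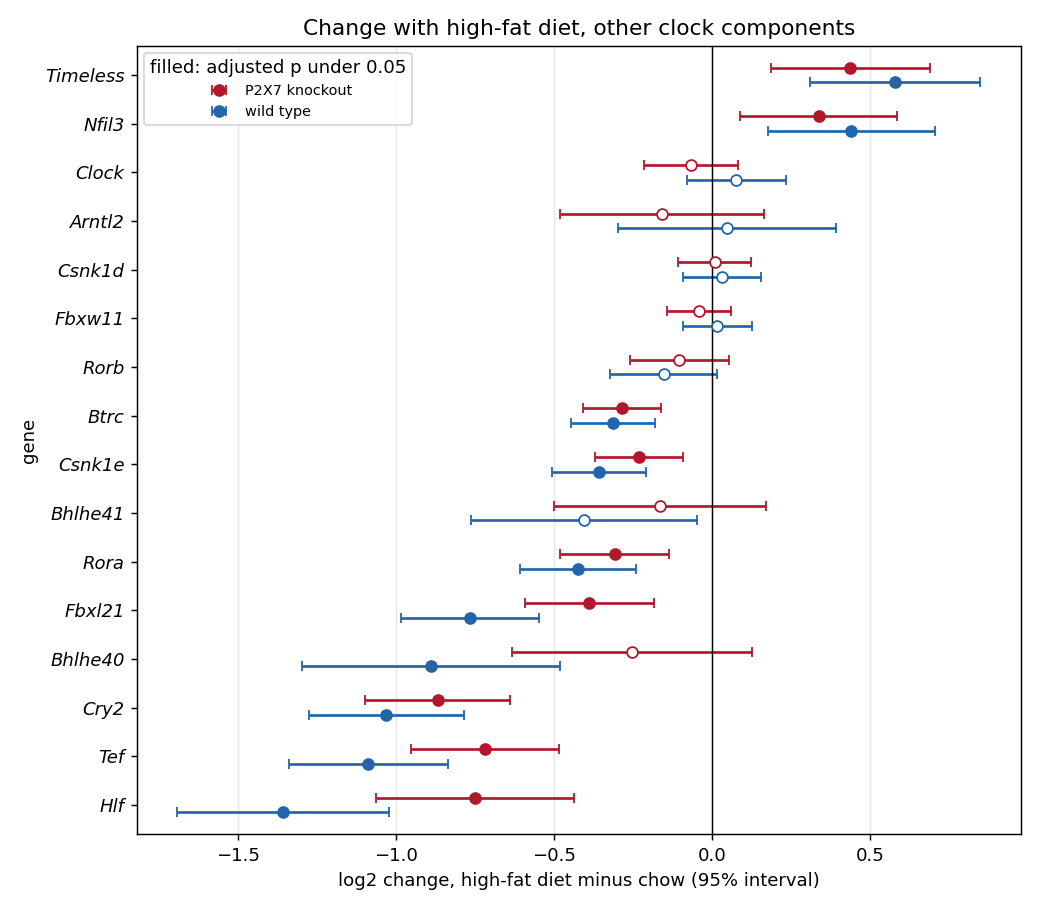
The log2 change with high-fat diet (horizontal axis, with the 95% interval from limma) of 16 other clock components (vertical axis, ordered by the wild-type change) in P2X7 knockout mice (red, upper) and wild-type mice (blue, lower), with filled points for an adjusted p under 0.05. The lowest points are Cry2 in knockout (-0.87) and Hlf in wild-type mice (-1.36), and Clock lies near 0 in both genotypes.

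Genes that cycle in many tissues were listed as well. Of 9 listed 8 were measured, and in knockout mice 2 rose and 2 fell, while in wild-type mice 1 rose and 5 fell. Over all genes 14.5% rose and 19.7% fell in knockout mice, and 17.7% rose and 18.1% fell in wild-type mice. Usp2, a deubiquitinase gene under clock control, read 6.68 to 6.89 on high-fat diet and 6.91 to 6.97 on chow in knockout mice (-0.16 ± 0.10, limma adjusted p 0.262). In wild-type mice it read 6.37 to 6.81 on high-fat diet and 7.22 to 7.45 on chow (-0.73 ± 0.11, adjusted p 0.000125), and the interaction of 0.58 ± 0.15 did not pass (adjusted p 0.32). Nampt, an enzyme of NAD salvage, stood at -0.15 ± 0.07 in knockout mice (adjusted p 0.116) and -0.34 ± 0.07 in wild-type mice (adjusted p 0.00216). Ppara, a fatty acid receptor, fell by 0.86 ± 0.18 in knockout mice and by 1.12 ± 0.19 in wild-type mice. Tspan4 stood at -0.27 ± 0.09 in knockout mice (adjusted p 0.0309) and at -0.35 ± 0.10 in wild-type mice (adjusted p 0.0112). Lonrf3 went the other way, with rises of 2.39 ± 0.17 in knockout and 2.60 ± 0.18 in wild-type mice. The cell-cycle kinase gene Wee1 rose by 0.64 ± 0.19 in knockout mice (adjusted p 0.0192) and did not pass in wild-type mice (0.49 ± 0.20, adjusted p 0.0767).

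Per1 also answers to glucocorticoids and to rapid stimuli, so genes of those responses were read beside it. Of 8 glucocorticoid-responsive genes 2 rose and 3 fell with diet in each genotype. Across all genes 14.5% rose and 19.7% fell in knockout mice, and 17.7% rose and 18.1% fell in wild-type mice. Zbtb16 stood at -1.51 ± 0.22 in knockout and -1.39 ± 0.23 in wild-type mice, Klf9 at -0.64 ± 0.08 in knockout and -0.76 ± 0.09 in wild-type mice, and Fkbp5 at -0.68 ± 0.22 in knockout and -0.71 ± 0.24 in wild-type mice, all past the threshold. Pdk4 rose by 1.14 ± 0.21 in knockout and by 1.41 ± 0.22 in wild-type mice, and Sgk1 by 0.65 ± 0.12 in knockout and by 0.52 ± 0.13 in wild-type mice. Any part of glucocorticoid responses in the fall of Per1 in wild-type mice was not tested. Of 9 immediate early genes 1 rose in knockout mice, and 2 rose and 1 fell in wild-type mice, where 14.5% of all genes rose in the knockout, and 17.7% rose and 18.1% fell in the wild type, so these counts lie near the background. Fos stood at 1.49 ± 0.31 in the knockout (limma adjusted p 0.0023) and 2.37 ± 0.34 in the wild type (adjusted p 8.95e-05). Junb (0.73 ± 0.13) rose and Fosb (-0.65 ± 0.24) fell in the wild type, while Egr1, Dusp1 and Nr4a1 did not pass in either genotype.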

How the data were processed

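Whole-tissue RNA (100 ng per array) was measured on 13 Affymetrix arrays. The authors deposited a log2 value for every probe set, made with RMA per the submitters' processing notes, with no version stated. Values ran from 1.70 to 13.86 over 35556 probe sets, and no further normalisation was applied. Probe sets paired with 1 gene symbol numbered 21218, with several 1881 and with none 12457, and the last 2 kinds were left out of the tests. The highest-mean probe set stood for each of 18820 genes, of which 18790 matched RefSeq by Entrez ID with 0 names changed.

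One limma 3.58.1 model (R 4.3.3, the data.table package at 1.17.8) held the 4 group means and took in all 13 arrays, with variances moderated along intensity. Contrasts gave diet in each genotype, genotype on each diet and over both diets, and their interaction, with Benjamini-Hochberg adjustment over all genes of a contrast and a threshold of 0.05. The members and the 4 gene lists and 6 marker lists were chosen with earlier results of these data known. All clock genes were named. From each of the 4 gene lists at most 5 genes that passed were named, taken by smallest p for diet in wild-type mice. The 5 genes most like Arntl and, in place of Dbp, the 5 most like Per3 were named too. Clock, Nfil3, Rora, Bhlhe40, Timeless, Wee1, Egr1, Dusp1, Nr4a1 and Alb were named beside these after their values were seen. The fit was tested on simulated arrays. Python 3.11.15, matplotlib 3.10.9 and numpy 2.4.6 drew the figures. Alternatives changed 10 choices and left out each of the 13 arrays in turn, and the other Ciart probe set was added after seeing the data.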

Additional observations from a re-analysis of the deposited data

Results flagged for a closer look

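For 5 clock genes every knockout array lay on one side of the wild-type mean on chow and on the other side of it on high-fat diet. The share of all genes that do so was not counted. Arntl was above on chow and below on high-fat diet, with an interaction of -0.86. So was Npas2, with an interaction of -0.94. Per3 (0.79), Cry1 (0.31) and Nr1d2 (0.23) were below on chow and above on high-fat diet. In the limma test of the difference none of the 5 passed, with adjusted p of 0.32 for Arntl, Npas2 and Per3, 0.526 for Cry1 and 0.446 for Nr1d2.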

How the results depend on the processing

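The diet results of the clock genes in wild-type mice kept direction and side of the threshold under all 10 processing alternatives and the other Ciart probe set, and with each of the 13 arrays left out. With the liver marker mean as covariate the genes called for diet in wild-type mice numbered 4399, against 6736. Centring arrays on their medians gave 2480 risen and 4373 fallen for diet in knockout mice, against 2721 and 3708, and 2832 and 4523 in wild-type mice, against 3327 and 3409. On chow, the count of fallen clock genes was 0, against 1, without the intensity trend, with the mean of all probe sets, with only the groups compared and with the liver covariate. All genes called on chow then numbered 0 with the liver covariate and 6 with a replicate block, against 25, and on high-fat diet 2 with only the groups compared, 0 with the replicate block and 13 with the liver covariate, against 8. Over both diets they numbered 32 with array weights and 6 with the replicate block, against 20. For the interaction they numbered 2 without the trend, 2 without dim genes and 1 with array weights, against 0. The cause was not tested.

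Leaving out 1 array moved the fallen clock genes between 0 and 1 on chow, on high-fat diet and for the interaction. All genes called on chow ranged from 2 to 44, those on high-fat diet from 6 to 177, those over both diets from 11 to 62 and those for the interaction from 0 to 106. The highest of each came without wild-type high-fat replicate 2.

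The sign of some genotype differences that never passed also turned. Per2 on chow stood at -0.0029 after centring, -0.1557 with the liver covariate and -0.0906 to 0.1289 with an array left out. Npas2 on chow stood at -0.0229 with the liver covariate. Ciart on high-fat diet stood at -0.0839 with the liver covariate and -0.0475 to 0.2377 with an array left out. Over both diets Nr1d2 stood at -0.0139 after centring, -0.0027 with the block and -0.036 with the liver covariate, and Per1 at -0.0888 with the liver covariate. With an array left out the ranges were -0.1944 to 0.0142 for Npas2, -0.1785 to 8e-04 for Per3, -0.051 to 0.0334 for Cry1 and -0.0027 to 0.0349 for Nr1d2.

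Between groups, deviations of same-numbered arrays correlated at -0.2981 to 0.2221 over 18 pairs, 6 of them over 0.1. Those of differently numbered arrays correlated at -0.4118 to 0.5339 over 45 pairs, 10 of them over 0.1. Deviations are taken from means of so few arrays that these values cannot decide whether the replicate numbers paired the samples. The replicate block left every clock gene's call in place, and 3 or 4 arrays per group limit what differences could pass.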

Other observations

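The 2 probe sets that the annotation pairs with both Nr1d1 and Thra, and the 1 paired with both Sphk2 and Dbp, entered no test, and their signal cannot be assigned to either gene. The first Nr1d1 and Thra probe set averaged 9.48 ± 0.10 on high-fat diet (SD, n = 4) and 10.39 ± 0.03 on chow (SD, n = 3) in knockout mice, and 9.47 ± 0.09 on high-fat diet and 10.50 ± 0.08 on chow in wild-type mice (SD, n = 3 each). The second averaged 10.48 ± 0.18 on high-fat diet and 11.64 ± 0.03 on chow in knockout mice, and 10.39 ± 0.22 on high-fat diet and 11.58 ± 0.12 on chow in wild-type mice. The Sphk2 and Dbp probe set averaged 9.36 ± 0.15 on high-fat diet and 10.07 ± 0.08 on chow in knockout mice, and 9.19 ± 0.19 on high-fat diet and 10.34 ± 0.25 on chow in wild-type mice. In all 3 probe sets the diets did not overlap in either genotype, as was so for 43% of all genes in knockout and 43.3% in wild-type mice.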
